A study of Mus musculus with 8 samples.

Results

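The 4 Hox clusters were described here through the peaks of 3 histone marks in mouse C3H10T1/2 cells, a mesenchymal progenitor line established from embryos of the C3H strain. A peak belonged to a cluster when it shared at least 1 bp with 1 of 4 fixed mm9 intervals: chromosome 6 from 52100000 to 52240000 for Hoxa, chromosome 11 from 96000000 to 96250000 for Hoxb, chromosome 15 from 102720000 to 102990000 for Hoxc, and chromosome 2 from 74480000 to 74620000 for Hoxd. By this rule 6 of the 7689 listed peaks were members: 4 of the 999 H3K27me3 peaks, 1 of the 1691 H3K36me2 peaks and 1 of the 4999 H3K36me3 peaks. The clusters hold 38 Hox genes followed here, 10 in Hoxa, 10 in Hoxb, 9 in Hoxc and 9 in Hoxd.

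The 6 ChIP libraries came from cells that stably expressed FLAG-HA-tagged H3.3, as the wild type (WT) or with lysine 36 changed to methionine (K36M). Both lines were used at passages 10 to 15, and the tagged histone was expressed beside the cells' own H3. Micrococcal nuclease was used to cut the chromatin, and Drosophila S2 chromatin amounting to 5% of the mouse chromatin served as the spike-in reference. Each mark was measured in 1 WT and 1 K36M library, and the labels do not say whether a line was 1 clone. All values are the authors' spike-in normalized reads in a listed peak. With 1 library per group no test between genotypes was possible, so every difference below is between 2 libraries and has no replicate check. The intervals in parentheses are 95% intervals for counting error alone, and they assume that the smallest step of a column is worth 1 read.

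Hox genes encode homeodomain transcription factors that give cells their position along the body axis and the limbs, and the order of the genes in a cluster follows the order of their expression domains. Where they are silent, the clusters are classic targets of Polycomb repressive complex 2, which writes H3K27me3 over long stretches of chromatin and is drawn to CpG-rich DNA. H3K36me2 and H3K36me3, written by NSD enzymes and SETD2, mark chromatin on which that complex works poorly, and H3.3 K36M inhibits the H3K36 methyltransferases. RNA levels were not analysed here, so the labelled cell type was not checked against markers and no Hox gene can be called active or silent from these values.

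In the GRCm38.p6 gene table of RefSeq, all 38 genes were found in single runs. With increasing position Hoxa ran from Hoxa2 to Hoxa13 with Skap2 before and Evx1 after the cluster, Hoxb from Hoxb13 to Hoxb1 between Ttll6 and Skap1, Hoxc from Hoxc13 to Hoxc4 between Calcoco1 and Smug1, and Hoxd from Hoxd13 to Hoxd1 between Evx2 and Mtx2. This table belongs to another build than the peaks, so no peak was assigned to a single gene. A promoter sequence was found in the RefSeq promoter table for 22 of the 38 genes (57.9%), too few for a comparison of base composition over the members, and that check is void. The available promoter with the most CG in each cluster is printed, to show the CpG-rich end of the range and not a typical member, as the 250 bases before the annotated start, 5′ to 3′, with each CG in capitals. In GRCm38.p6 they lie at chr6:52260881-52261130 on the minus strand (Hoxa13), chr11:96318017-96318266 on the plus strand (Hoxb4), chr15:103034145-103034394 on the plus strand (Hoxc4) and chr2:74667975-74668224 on the plus strand (Hoxd13), and these positions cannot be set against the mm9 positions of the peaks.
Hoxa13: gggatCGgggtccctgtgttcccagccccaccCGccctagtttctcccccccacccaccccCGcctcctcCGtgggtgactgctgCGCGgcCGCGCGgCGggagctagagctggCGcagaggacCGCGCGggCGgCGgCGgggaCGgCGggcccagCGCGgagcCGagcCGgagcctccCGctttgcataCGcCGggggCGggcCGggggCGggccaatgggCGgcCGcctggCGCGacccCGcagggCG
Hoxb4: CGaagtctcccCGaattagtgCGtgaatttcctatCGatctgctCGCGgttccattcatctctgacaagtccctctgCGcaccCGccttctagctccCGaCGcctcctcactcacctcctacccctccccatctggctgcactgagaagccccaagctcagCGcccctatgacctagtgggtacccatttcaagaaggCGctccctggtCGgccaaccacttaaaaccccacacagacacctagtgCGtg
Hoxc4: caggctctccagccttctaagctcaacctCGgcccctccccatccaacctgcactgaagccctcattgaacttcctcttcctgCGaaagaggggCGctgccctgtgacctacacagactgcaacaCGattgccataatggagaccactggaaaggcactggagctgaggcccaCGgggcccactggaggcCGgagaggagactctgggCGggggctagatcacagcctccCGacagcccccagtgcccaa
Hoxd13: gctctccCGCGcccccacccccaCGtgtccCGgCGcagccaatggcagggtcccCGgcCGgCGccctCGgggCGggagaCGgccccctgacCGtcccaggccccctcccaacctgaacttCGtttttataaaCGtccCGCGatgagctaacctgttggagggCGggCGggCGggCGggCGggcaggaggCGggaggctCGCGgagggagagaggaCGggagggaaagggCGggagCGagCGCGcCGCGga

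The 4 promoters differed widely in CG content. Those of Hoxa13 and Hoxd13, both from the end of their cluster that patterns the distal limb, held 35 and 31 CG, more than 97.0% and 94.8% of all 32851 promoters of the same length. The Hoxb4 stretch held 14 and the Hoxc4 stretch, the only available one of its cluster, held 8. The median over all promoters was 6, with quartiles of 2 and 16. At the low end, 1 of the Hoxd11 promoters held 2, and those of Hoxa9 and Hoxd4 held 3 each. Those of Hoxa2 and Hoxd8 held 6 each, equal to the median. Every other available member promoter exceeded the median of 6, with 28 in Hoxa5 and 24 each in Hoxa6 and Hoxd1. CG was counted as these letters, which read the same on both strands, and a count says nothing of whether the complex binds there.

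H3K27me3 covered 3 of the 4 clusters almost from end to end, and Hoxa only in a small part. A single peak filled 96.7% of the Hoxb interval (241.8 kb of 250 kb), 93.9% of the Hoxc interval (253.4 kb of 270 kb) and 97.6% of the Hoxd interval (136.6 kb of 140 kb). The Hoxd peak ran on for another 41.6 kb beyond the upper edge of its interval, to a full length of 178.2 kb. In Hoxa 1 peak of 23.4 kb covered 16.7% of the interval, beginning 96.4 kb inside its lower edge and ending 20.2 kb before its upper edge. The rest of the Hoxa interval held no listed peak of any of the 3 marks. The tables may have been ended at a fixed number of peaks, so the empty stretch shows only that none was listed there.

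The map of the intervals also shows the H3K36 methylation listed inside them. No H3K36me2 or H3K36me3 peak reached into Hoxa, Hoxb or Hoxd. Such absence was the common state when counted by H3K27me3 peak. Only 57 of the 999, and 5 of the 49 of 100 kb or more, touched or overlapped an H3K36 peak. Both marks reached into Hoxc, and only at its edges: 6.4 kb of an H3K36me2 peak at the lower edge (2.37% of the interval) and 7.4 kb of an H3K36me3 peak at the upper edge (2.74%).

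**Figure D1:**
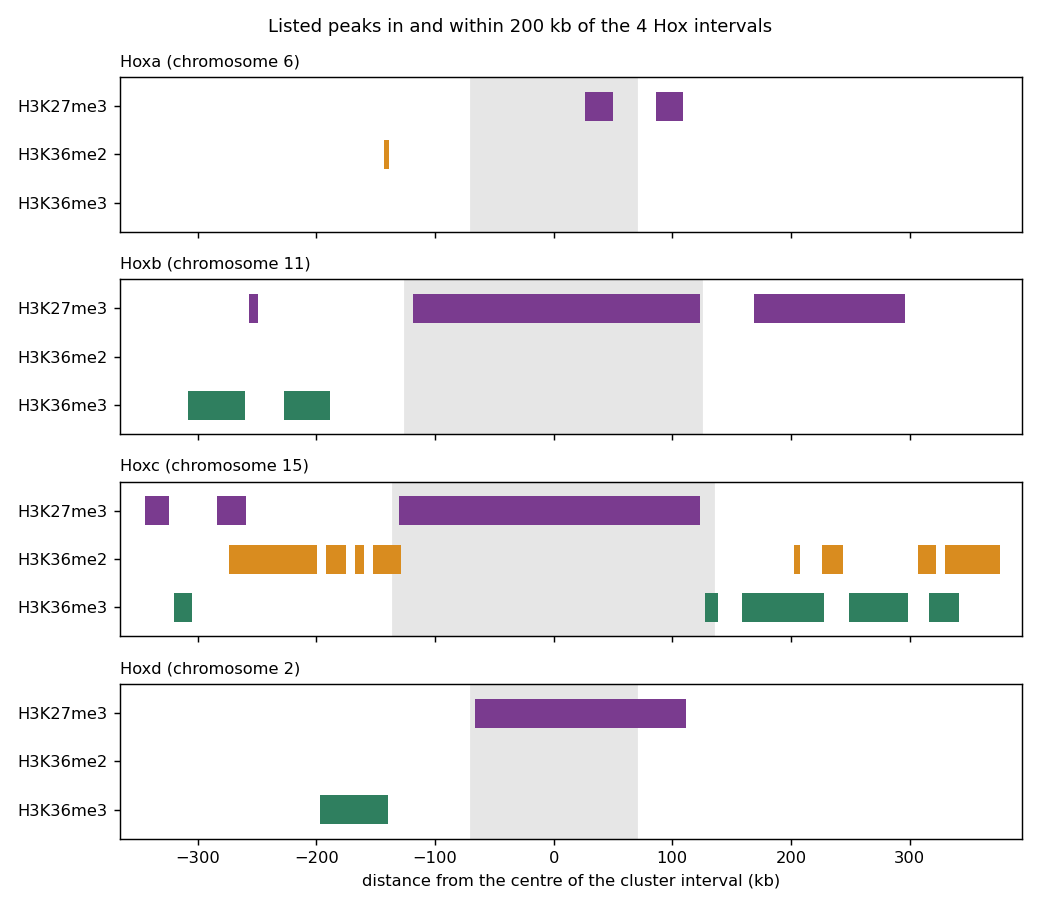
Listed peaks of 3 marks (rows) in and within 200 kb of each Hox interval (grey), drawn to scale as distance from the centre of the interval in kb. H3K27me3 fills the intervals of Hoxb, Hoxc and Hoxd but 16.7% of Hoxa, and 13 of the 17 H3K36 peaks lie around Hoxc.

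The 4 Hox peaks were 0.400% of the listed H3K27me3 peaks, 2.07% of their length, 3.06% of their signal in WT and 2.75% of their signal in K36M. The Hoxc and Hoxb peaks were the longest and the next longest of the table and ranked 1 and 2 by total signal in both genotypes. The Hoxd peak was number 6 by length and number 7 by total signal in either genotype. The Hoxa peak was close to the middle of the table, with rank 511 of 999 by length and 493 by WT signal. Per kb, that is with the signal divided by peak length, Hoxc ranked 3 and Hoxb 12 in WT, while Hoxd ranked 364 and Hoxa 377. By this measure Hoxb and Hoxc were among the densest domains of the table in WT, and Hoxd and Hoxa were closer to its middle. By the mean density of both genotypes Hoxc ranked 20, Hoxb 50, Hoxd 277 and Hoxa 370.

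On the spike-in scale, H3K27me3 was lower in K36M in the Hoxb and Hoxc domains and differed by less than counting error in Hoxd and Hoxa. The Hoxb peak, at 96006400 to 96248199 on chromosome 11, held 3384 normalized reads in WT and 2642 in K36M. It was the lowest of the 4 relative to WT, with 78.1% of the WT value, a ratio of 0.781 (0.762 to 0.800) and a log2 ratio of −0.36. Its density went from 14.0 normalized reads per kb in WT to 10.9 in K36M.

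The Hoxc peak, at 102725000 to 102978399 on chromosome 15, held 4091 normalized reads in WT and 3453 in K36M. The K36M library was again the lower one, with a ratio of 0.844 (0.826 to 0.862) and a log2 ratio of −0.24. Density was 16.1 normalized reads per kb in WT and 13.6 in K36M, so the Hoxc domain in K36M was about as dense as the Hoxb domain in WT.

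The Hoxd peak, at 74483400 to 74661599 on chromosome 2, held 1695 normalized reads in WT and 1737 in K36M. These levels lay within counting error of each other, with a ratio of 1.03 (0.993 to 1.06) and densities of 9.51 and 9.75 normalized reads per kb. The Hoxa peak, at 52196400 to 52219799 on chromosome 6, held 222 and 211 normalized reads, a ratio of 0.954 (0.872 to 1.04). Its interval is the widest of the 4, since it rests on 1231 reads in WT and 813 in K36M, against 9415 and 6681 in the Hoxd peak, and a difference of this size was not detectable at this depth.

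**Figure D2:**
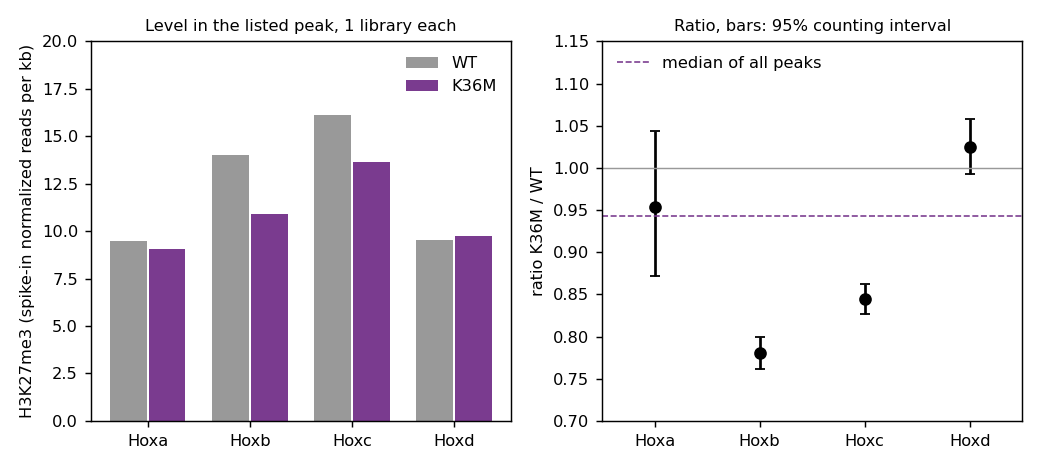
Left, H3K27me3 in spike-in normalized reads per kb in the listed peak of each cluster, 1 WT and 1 K36M library per bar pair. Right, the ratio of K36M to WT with its 95% counting interval, beside 1 (grey line) and the median of all 999 peaks (dashed): Hoxb at 0.781 and Hoxc at 0.844 lie below both lines, and the intervals of Hoxa and Hoxd include 1.

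The spread among the clusters does not rest on the spike-in factor, which cancels when 2 clusters of the same libraries are compared. All 6 pairs were compared by the ratio of their K36M to WT ratios. Hoxb was 0.762 times Hoxd (0.732 to 0.793), the largest gap. Hoxc was 0.824 times Hoxd (0.793 to 0.856), and Hoxb was 0.925 times Hoxc (0.895 to 0.955). Hoxa was 1.22 times Hoxb (1.11 to 1.34) and 1.13 times Hoxc (1.03 to 1.24). Hoxa and Hoxd, at 0.931 (0.846 to 1.02), were the only neighbours in the order Hoxb, Hoxc, Hoxa, Hoxd whose interval included 1. How much such ratios vary between cultures was not measured.

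The position of single clusters against 1, unlike their order, does rest on that factor. With both libraries scaled to the same total over the listed peaks, the ratios were 0.819 for Hoxb, 0.886 for Hoxc, 1.00 for Hoxa and 1.08 for Hoxd. On that scale Hoxd lay above 1 by more than counting error. If the authors' factors were rounded to 2 decimals, the Hoxd ratio could lie between 0.978 and 1.07 and the Hoxa ratio between 0.910 and 1.00, so their direction is not fixed by these data. Hoxb and Hoxc stayed below 1 under both.

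Set against all listed H3K27me3 peaks, the Hox peaks lay inside the common range. In K36M 3 of the 4 were lower than in WT, where 62.5% of all peaks were lower, and 2 of the 4 had a counting interval wholly below 1, against 42.3% of all peaks. None of the 4 was at least 1.5-fold lower, as 8.11% of all peaks were, and none was at least 1.5-fold higher, as 3.40% were. The median log2 ratio was −0.16 over the 4 Hox peaks and −0.08 over all 999, with quartiles of −0.28 and 0.11. Hoxb lay below the lower quartile, Hoxc between it and the median, Hoxa at the median and Hoxd above it, with 17.9%, 29.1%, 52.3% and 67.0% of all peaks at a lower ratio.

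Summed over the 4 peaks, H3K27me3 came to 9391 normalized reads for WT and 8044 for K36M. This gives a ratio of 0.857 (0.845 to 0.869), beside 0.953 (0.951 to 0.955) for the sum over all listed peaks. The sum is carried by Hoxb and Hoxc, which differed by −742 and −638 normalized reads, while Hoxd differed by 42.4 and Hoxa by −10.2.

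Among long domains the Hoxb ratio was near the low end. Of the 49 H3K27me3 peaks of 100 kb or more, which include Hoxb, Hoxc and Hoxd, the median log2 ratio was 0.00 and 24 were lower in K36M. A lower ratio than that of Hoxb was found in 4 of the 49, a lower ratio than that of Hoxc in 11, and a lower one than that of Hoxd in 29. The plot of length against ratio shows the narrowing of the ratios towards long peaks, with Hoxb and Hoxc at the far end and below 0.

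**Figure D3:**
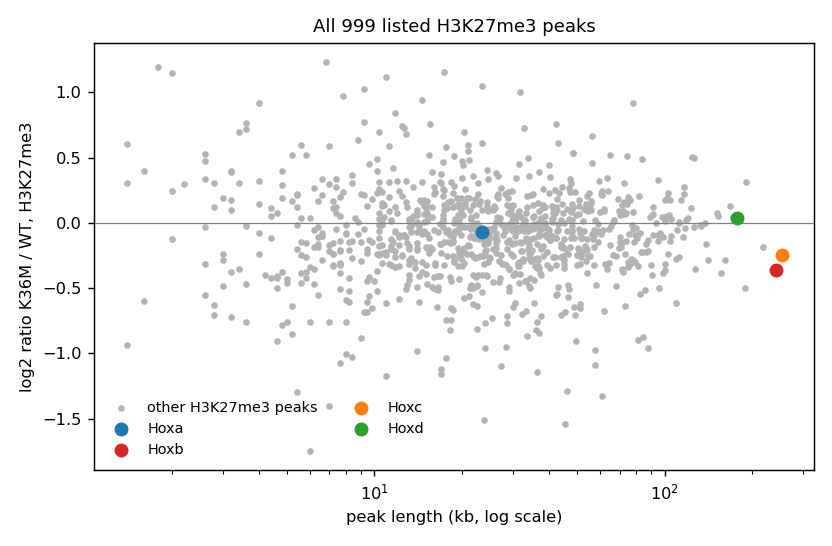
Length (kb, log scale) and log2 ratio of K36M to WT for the 999 listed H3K27me3 peaks, 1 point per peak, with the 4 Hox peaks in colour. Hoxb (241.8 kb, −0.36) and Hoxc (253.4 kb, −0.24) are the longest peaks of the table and lie below 0, and Hoxd (178.2 kb, 0.04) and Hoxa (23.4 kb, −0.07) lie near it.

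Against the other H3K27me3 peaks of their own chromosomes, Hoxc and Hoxd lay at the median and Hoxb below it. Hoxa was below it by less than its counting error. On chromosome 15, the 119 peaks had a median log2 ratio of −0.22, and Hoxc differed from it by −0.02. On chromosome 2 the median of 121 peaks was 0.00, and Hoxd differed by 0.03. The chromosome 6 median of 16 peaks was 0.02, and Hoxa differed by −0.08. As a ratio this median was 1.01, inside the Hoxa interval of 0.872 to 1.04. Hoxb stood farthest from its chromosome, by −0.21 from the median of −0.14 over 95 peaks on chromosome 11, 14 of which had a lower ratio. The part of the chromosome in the differences between clusters was not tested.

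**Figure D4:**
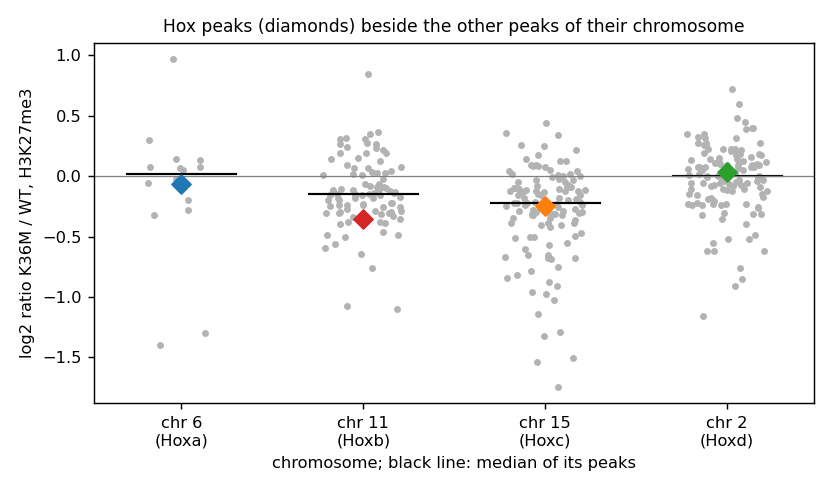
Log2 ratio of H3K27me3 in K36M to WT for every listed peak of chromosomes 6, 11, 15 and 2 (grey points), the median of each chromosome (black line) and the Hox peak on it (diamond). Hoxc and Hoxd lie within 0.03 of their chromosome's median, and Hoxb lies 0.21 below its own.

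Within 200 kb of the intervals lay 5 other H3K27me3 peaks, and for 4 of them the ratio differed from that of the Hox peak by less than counting error. Beyond the upper edge of Hoxb, after a gap of 45.6 kb without a listed peak, lay a domain of 127.6 kb from 96293800 to 96421399. It held 1490 normalized reads in WT and 1169 in K36M, and its ratio of 0.784 was 1.00 times that of the Hoxb peak (0.961 to 1.05). On the Hoxa side the nearest peak, 22.4 kb from 52256600 to 52278999, lay 16.6 kb outside the interval and held 236 and 227 normalized reads, 1.01 times the Hoxa ratio (0.889 to 1.14). Below Hoxc were peaks at 102571200 to 102595799 and 102510800 to 102531199, with ratios of 0.897 and 0.808, which were 1.06 (0.975 to 1.16) and 0.957 (0.873 to 1.05) times the Hoxc ratio. The first of these overlapped the H3K36me2 peak from 102581400 to 102655399, which was 4.61-fold lower in K36M.

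The exception among these neighbours was a peak of 7.6 kb below Hoxb, from 95868400 to 95875999. It held 90.7 normalized reads in WT and 43.2 in K36M, and its ratio of 0.476 was 0.609 times that of the Hoxb domain (0.507 to 0.729). It lay in the gap between both H3K36me3 peaks of that flank, from 95817200 to 95865199 and from 95897600 to 95936199. Hoxd had no other H3K27me3 peak within 200 kb, and its nearest ones lay 837 kb below and 1220 kb above the interval, with ratios of 0.972 (0.896 to 1.05) and 0.904 (0.852 to 0.958). The nearest peak below Hoxa lay 959 kb away and had a ratio of 0.801 (0.710 to 0.904), and the nearest above Hoxc lay 341 kb away with 1.09 (0.982 to 1.21).

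The clusters differed in the number of H3K36 peaks around them. Within 200 kb of an interval there were 17 listed H3K36 peaks, counting the 2 that reach into Hoxc: 9 of H3K36me2 and 8 of H3K36me3. Of these 13 lay around Hoxc, 2 around Hoxb, 1 around Hoxa and 1 around Hoxd. Counted from the edges of the H3K27me3 peak, Hoxc had 12 H3K36 peaks within 200 kb. None of the 49 long H3K27me3 peaks had more, and their median was 3. Over all 999 H3K27me3 peaks the median was 2, and 6 had more than 12. The Hoxb peak had 2, and the Hoxd and Hoxa peaks had 1 each. Chromosome 15 carried 291 of the 1691 listed H3K36me2 peaks, and the part of this in the count at Hoxc was not tested.

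At Hoxc the H3K27me3 domain overlapped H3K36 methylation on the lower side and lay near it on the upper side. Contact or overlap with an H3K36 peak was found for 57 of all 999 H3K27me3 peaks and for 5 of the 49 long ones. On the lower side an H3K36me2 peak from 102702800 to 102726399 shared 1.4 kb with it. That peak went from 916 to 237 normalized reads in K36M, 3.87-fold lower, with a ratio of 0.258 (0.230 to 0.290). On the upper side an H3K36me3 peak from 102982600 to 102993199 began after a gap of 4.2 kb. It went from 204 to 47.5 normalized reads, 4.28-fold lower, with a ratio of 0.233 (0.198 to 0.274). Both H3K36 edges and the H3K27me3 domain between them were thus lower in K36M, the edges by far more than the domain, on the separate scale of each mark. The listed peaks as a whole went the same way. Every H3K36me2 and every H3K36me3 peak was lower, with medians of 4.19-fold and 3.28-fold. Of all H3K27me3 peaks, 62.5% were lower, and the median was 1.06-fold lower.

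The other 3 Hox peaks had no listed H3K36 peak at their edges. The nearest such peak lay 70.2 kb from the Hoxb peak, 72.6 kb from the Hoxd peak and 165.4 kb from the Hoxa peak, against a median of 44.6 kb over all H3K27me3 peaks and 28.6 kb over the 49 long ones. Such distances were common for Hoxb and Hoxd, since 368 and 356 of the 999 peaks lay farther away, and less so for Hoxa, with 161 farther and an upper quartile of 113 kb. All of the nearest ones lay on the lower side. On the upper side the first H3K36 peak was 338 kb from Hoxb (H3K36me2), 836 kb from Hoxd (H3K36me3) and 453 kb from Hoxa (H3K36me3).

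H3K36me2 around Hoxc formed a chain of 4 peaks on the lower side and 4 scattered peaks on the upper side. The first of the chain, 74.0 kb from 102581400 to 102655399, went from 3316 to 719 normalized reads, 4.61-fold lower. The next, from 102663600 to 102680399, went from 951 to 202, 4.72-fold lower, and the small peak from 102687400 to 102695199 from 400 to 74.9, 5.34-fold lower. With the peak at the H3K27me3 edge, 3.87-fold lower, the chain ran up to the Hoxc domain. This edge peak had the smallest fold difference of the 4. Its interval of 0.230 to 0.290 overlapped that of the first peak, 0.203 to 0.231. By ratio it ranked 597 of the 1691 H3K36me2 peaks.

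On the upper side the differences were more uneven. The peak from 103057800 to 103062399, 4.6 kb long, held 165 normalized reads in WT and 73.8 in K36M and was 2.24-fold lower (ratio 0.447, 0.353 to 0.565). It had the highest ratio of the 9, rank 82 of 1691 among all H3K36me2 peaks, and it lay inside an H3K36me3 peak. The peak from 103081000 to 103098399 was 5.22-fold lower, at 942 and 180 normalized reads, and the remaining ones, starting at 103162200 and 103184800, were 3.34-fold and 3.42-fold lower. The last of them, 195 kb from the interval, was also the outermost peak the distance rule took in. Summed over the 3 peaks wholly below and the 4 above the Hoxc interval, H3K36me2 was 4.69-fold and 3.63-fold lower.

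The single H3K36me2 peak near another cluster lay 69.0 kb below Hoxa, from 52027200 to 52030999. It went from 178 to 31.2 normalized reads, 5.71-fold lower with a ratio of 0.175 (0.128 to 0.237), the lowest of the 9. All 9 peaks were at least 2-fold lower, as were 97.0% of all H3K36me2 peaks, and 5 of the 9 at least 4-fold, against 59.0%. Their median log2 ratio was −2.20, beside −2.07 over all 1691, and this gap of −0.14 was −0.039 with a pseudocount. The 8 around Hoxc had a median of −2.08, above the −2.15 of chromosome 15, and the 4-fold limit was passed by 4 of the 8 and by 64.3% of the H3K36me2 peaks of that chromosome.

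H3K36me3 near the clusters was lower in K36M by more than the median around Hoxc and by close to the median elsewhere. Above Hoxc the peak from 103013600 to 103083199 went from 1976 to 478 normalized reads, 4.13-fold lower. Its neighbour from 103103800 to 103153399 went from 1209 to 232, 5.22-fold lower with a ratio of 0.192 (0.178 to 0.205), and ranked 4955 of 4999 by ratio, close to the lowest. The peak from 103171600 to 103196199 held 889 and 224 normalized reads, 3.98-fold lower, and ranked 51 of 4999 by WT density. The peak below Hoxc, from 102535000 to 102550599, was 4.44-fold lower.

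Near Hoxb, the H3K36me3 peaks were 3.44-fold lower from 95897600 to 95936199 (1003 and 292 normalized reads) and 2.93-fold lower from 95817200 to 95865199 (945 and 322). Below Hoxd the peak from 74353400 to 74410799 went from 718 to 216 normalized reads, 3.32-fold lower. Over all 4999 H3K36me3 peaks the median was 3.28-fold lower. The Hoxd flank was the thinnest of the 8 by density, with 12.5 normalized reads per kb in WT against a median of 18.8 over all peaks, and the difference there was still close to that median.

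All 8 H3K36me3 peaks were at least 2-fold lower, as were 98.5% of the table. A 4-fold limit was passed by 4 of the 8 and by 9.96% of the table. These 4 all lay around Hoxc, where 28.3% of the H3K36me3 peaks of chromosome 15 passed the same limit. The median log2 ratio of the 5 peaks around Hoxc was −2.10, beside −1.88 over chromosome 15 and −1.71 over all peaks. For all 8 it was −0.31 from the median of the table, and −0.018 for the 3 that were not near Hoxc, so this gap rested on the Hoxc peaks. The gap for all near peaks was also smaller under other settings, at −0.12 with a pseudocount, −0.20 within 100 kb and −0.16 within 500 kb. The part of chromosome 15 in it was not tested.

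**Figure D5:**
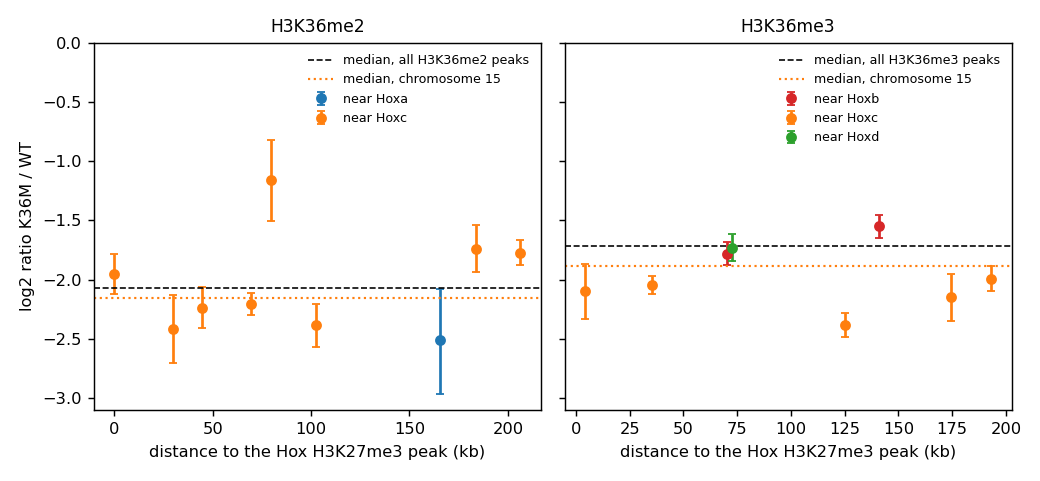
Log2 ratio of K36M to WT for the 9 H3K36me2 (left) and 8 H3K36me3 peaks (right) within 200 kb of a Hox interval, by distance in kb from the H3K27me3 peak of the cluster, with 95% counting intervals, the median of all peaks (dashed) and of chromosome 15 (dotted). All 17 lie below 0, as do all 1691 H3K36me2 and all 4999 H3K36me3 peaks listed. Of the 8 H3K36me3 peaks 7 lie below the dashed line, which as a median divides all peaks evenly. These are the 5 near Hoxc, the 1 near Hoxd and 1 of the 2 near Hoxb. The median of the 3 not near Hoxc is −0.018 from the line.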

How the data were processed

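The deposited tables give a signal per peak, the reads of each library scaled to Drosophila by the authors, per the file headers (Rx-Normalized). The submitters' processing notes name Bowtie 1.0.0, mm9 and dm6. Which caller and which library gave the peaks, and the scaling formula, is not given in the sources used here. Coordinates are printed as deposited, with starts on multiples of 200 bp. The members, lists and comparisons were chosen with earlier results of these data known.

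Ratios are K36M over WT without a pseudocount. The values of a column share a common step (0.18 and 0.26 for H3K27me3 in WT and K36M, 1.08 and 0.52 for H3K36me2, 0.39 and 0.22 for H3K36me3), which was taken as the worth of 1 read. A separate check of the low values did not recover whole reads, so the read numbers, the counting intervals and every statement of counting error rest on this assumption. On it the libraries held 915902 to 11294217 reads inside peaks. Ratios have exact Clopper-Pearson intervals from these reads, and ratios of 2 peaks' ratios have exact conditional intervals, all at 95%. They cover counting error only, and reads without molecular identifiers are not independent molecules. All peaks that overlap an interval, all H3K36 peaks within 200 kb and the nearest H3K27me3 peaks outside are named. Alternatives were another scaling, a pseudocount, other bounds, distances and comparison peaks. The 2 input libraries were not analysed here. Calculations were tested on simulated data. Python 3.11.15, numpy 2.4.6, pandas 2.3.3, scipy 1.17.1 and matplotlib 3.10.9 were used.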

Additional observations from a re-analysis of the deposited data

How the results depend on the processing

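With 1 library per group no replicate could be left out. No paired analysis was possible because each group has 1 library and no test was made. The pseudocount left the 4 Hox ratios inside their counting intervals. So did intervals widened by 50 kb, which took in another peak only at Hoxa and Hoxb and could not change Hoxc or Hoxd. A rule of at least 50% of the peak inside its interval could change nothing, since all 4 peaks pass it. Scaling to the same total moved Hoxb to 0.819, Hoxc to 0.886 and Hoxd to 1.08. Factors rounded to 2 decimals, an alternative added after the data were seen, allow 0.745 to 0.819 for Hoxb, 0.806 to 0.885 for Hoxc and 0.978 to 1.07 for Hoxd. The Hox median minus that of all H3K27me3 peaks, −0.07 on the log2 scale, was −0.17 among peaks of 40 kb or more and −0.51 in the densest 10%, which lack Hoxa or both Hoxa and Hoxd. The densest 10% were chosen by the mean of both genotypes, so peaks with high K36M values entered the set by construction, and the −0.51 is no result about Hox. Added later, it was −0.16 without Hoxa. The H3K36 peaks numbered 11 within 100 kb and 27 within 500 kb. The H3K36me3 gap to all peaks, −0.31, was −0.20 at 100 kb, −0.16 at 500 kb and −0.12 with a pseudocount. Added later, it was −0.018 without Hoxc and −0.22 for Hoxc peaks against chromosome 15. The H3K36me2 gap, −0.14, was −0.039 with a pseudocount. Added later, it was −0.45 without Hoxc, which leaves 1 peak, and reversed to 0.074 for Hoxc peaks against chromosome 15, and the cause was not tested.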
